A study of Mus musculus with 8 samples.

Results

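The genes described here encode the kinases that act on serine 273 of PPAR-gamma, their activators and binding partners, and a cofactor that reads the phosphorylated serine. The set has 8 genes, taken by exact symbol from the deposited table of 31854 gene rows: Cdk5, Cdk5r1, Cdk5rap1, Cdk5rap3, Mapk3, Map2k1, Map2k2 and Thrap3. Each symbol stood on 1 row, and all 8 rows passed the filter on low counts. The rule that takes them uses symbols and no measured value, although it was written with earlier results of these data known.

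RNA came from epididymal white adipose tissue, the visceral fat pad beside the testis, of mice fed a high-fat diet. One group carried the S273A allele of PPAR-gamma, a knock-in that puts alanine where serine 273 stands (4 libraries, replicates 2, 3, 4 and 6), and the other was wild type (WT; 4 libraries, replicates 1, 2, 3 and 5). Diet and tissue were shared by both groups, so no lean or chow-fed reference was sequenced with them here. The sample titles mark the S273A group with the code AA, and the labels do not spell out that code, the age of the mice or whether 1 or both alleles were changed. They also do not state that libraries came from different animals, so the spread behind each p-value is that of these libraries and could be technical. Library totals ran from 16161127 to 18194889 counts in S273A and from 14880239 to 17266209 in WT, and log2 levels of any pair of libraries had a correlation of 0.985 or more.

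PPAR-gamma is a nuclear receptor on which adipocyte formation depends. In fat of obese mice, serine 273 is phosphorylated by Cdk5, a proline-directed kinase that is switched on by a non-cyclin activator, p35 or p39. The same serine is phosphorylated by the kinase ERK, which the kinase MEK activates. MEK and ERK form the last steps of the Ras and Raf cascade. Thrap3 docks on the receptor phosphorylated at this serine. Kinase activity is set by binding, cleavage and phosphorylation, none of which a transcript count measures. The comparison therefore asks whether the transcripts of the enzymes that act on the site, or upstream of it, differ in mice that carry the S273A allele.

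The codon that the allele changes is shown first, because all 8 genes are grouped by it. In the 505-residue transcript of Pparg, codon 273 encodes serine, is the last codon of exon 5 of 7 and is followed, across an intron of 9575 bases, by a proline codon, the residue that a proline-directed kinase reads. The reference coding bases of codons 269 to 277 lie on the plus strand at chr6:115463271-115463285 and, in exon 6, at chr6:115472861-115472872 (GRCm38), with codon 273 in capitals.
Pparg codons: acaacggacaaaTCAccatttgtcatc

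Promoters are shown for the MEK genes Map2k1 and Map2k2, a pair of paralogues with similar transcript levels. They were taken from RefSeq on GRCm38.p6, as 250 bases before to 50 bases after the start, and 5 of the 8 genes matched that table. Capitals mark GC boxes, the letters GGGCGG on either strand, a sequence that Sp and KLF factors can bind. The Map2k1 promoter (chr9:64253556-64253855, minus strand) held 4 GC boxes and 31 CpG pairs, and that of Map2k2 (chr10:81105665-81105964, plus strand) held 2 GC boxes and 28 CpG pairs. Over all 32851 promoters of this length, 35.7% held a GC box and the median was 7 CpG pairs. Neither promoter held a TATA box (TATAAA, either strand; 13.6% of all promoters), so both have the CpG-rich, TATA-less letters often seen at broadly expressed genes. CCAAT, on either strand, was found 2 times in the Map2k1 window and 0 times in that of Map2k2 (37.4% of all promoters held it).
Map2k1: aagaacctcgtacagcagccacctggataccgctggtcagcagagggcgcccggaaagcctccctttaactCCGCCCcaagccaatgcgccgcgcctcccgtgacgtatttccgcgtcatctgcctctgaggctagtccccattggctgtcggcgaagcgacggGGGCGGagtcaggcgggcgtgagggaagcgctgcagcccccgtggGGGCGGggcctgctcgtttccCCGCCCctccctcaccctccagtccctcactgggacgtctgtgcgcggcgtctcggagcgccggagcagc
Map2k2: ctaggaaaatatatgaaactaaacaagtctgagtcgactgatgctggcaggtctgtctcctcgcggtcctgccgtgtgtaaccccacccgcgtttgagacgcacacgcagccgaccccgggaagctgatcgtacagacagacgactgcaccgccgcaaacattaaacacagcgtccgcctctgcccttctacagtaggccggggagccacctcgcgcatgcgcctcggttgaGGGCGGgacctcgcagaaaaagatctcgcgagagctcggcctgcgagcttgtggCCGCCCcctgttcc

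All 8 genes were detected in every library, and none differed between the genotypes past the threshold. By edgeR's quasi-likelihood test with Benjamini-Hochberg adjustment over all 15667 tested rows, 0 of the 8 were called in either direction, against 0% of all rows, and every adjusted p was 1. At an unadjusted p under 0.05 there were again 0 of 8, against 1.46% of all rows (229). DESeq2 also called 0 of the 8, against 0.00441% of all rows, with 0 at an unadjusted p under 0.05, against 0.952%. For limma-voom these were 0 of 8, against 0%, and 0 at an unadjusted p under 0.05, against 1.42%. The log2 fold changes, S273A over WT, were positive for 4 genes and negative for 4, with a median of 0.006 beside 0.001 for all tested rows. Groups overlapped for all 8 genes, while 1.19% of all rows had no overlap. The confidence intervals of Cdk5r1 and Cdk5rap1 were the widest of the set.

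Per kilobase of row length, which allows levels of different genes to be set side by side, the ERK and MEK transcripts were the most abundant of the 8 and the Cdk5 activator was the least. Mapk3 stood at 67.5 ± 5.64 RPKM in S273A and 65.3 ± 1.82 in WT (SD, n = 4 each, as for all values in this paragraph), above 95.9% of tested rows. Map2k1 was at 40.6 ± 2.29 and 40.6 ± 0.39 RPKM, and Map2k2 at 34.8 ± 1.23 and 35.4 ± 3.35 RPKM, in S273A and WT. The ranges of these MEK transcripts over the 8 libraries overlapped, at 37.5 to 43.0 and 30.9 to 38.6 RPKM. Thrap3, at 15.5 ± 0.631 RPKM in S273A and 15.3 ± 0.661 in WT, and Cdk5rap3, at 14.5 ± 0.6 and 14.9 ± 1.73, also overlapped. Cdk5 followed at 11.8 ± 0.537 RPKM in S273A and 11.9 ± 0.659 in WT, below the whole range of its neighbour Cdk5rap3. Cdk5rap1 was at 4.13 ± 0.763 and 3.64 ± 0.424 RPKM, and Cdk5r1 at 0.695 ± 0.0632 and 0.567 ± 0.104, a level that 8.99% of tested rows lay below. Map2k1 with Map2k2, and Thrap3 with Cdk5rap3, were the neighbours whose ranges overlapped; at every other step of this order the ranges over libraries did not overlap. The row length is that of all features counted for the gene, so RPKM understates a gene whose long ends are little used in this tissue.

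**Figure D1:**
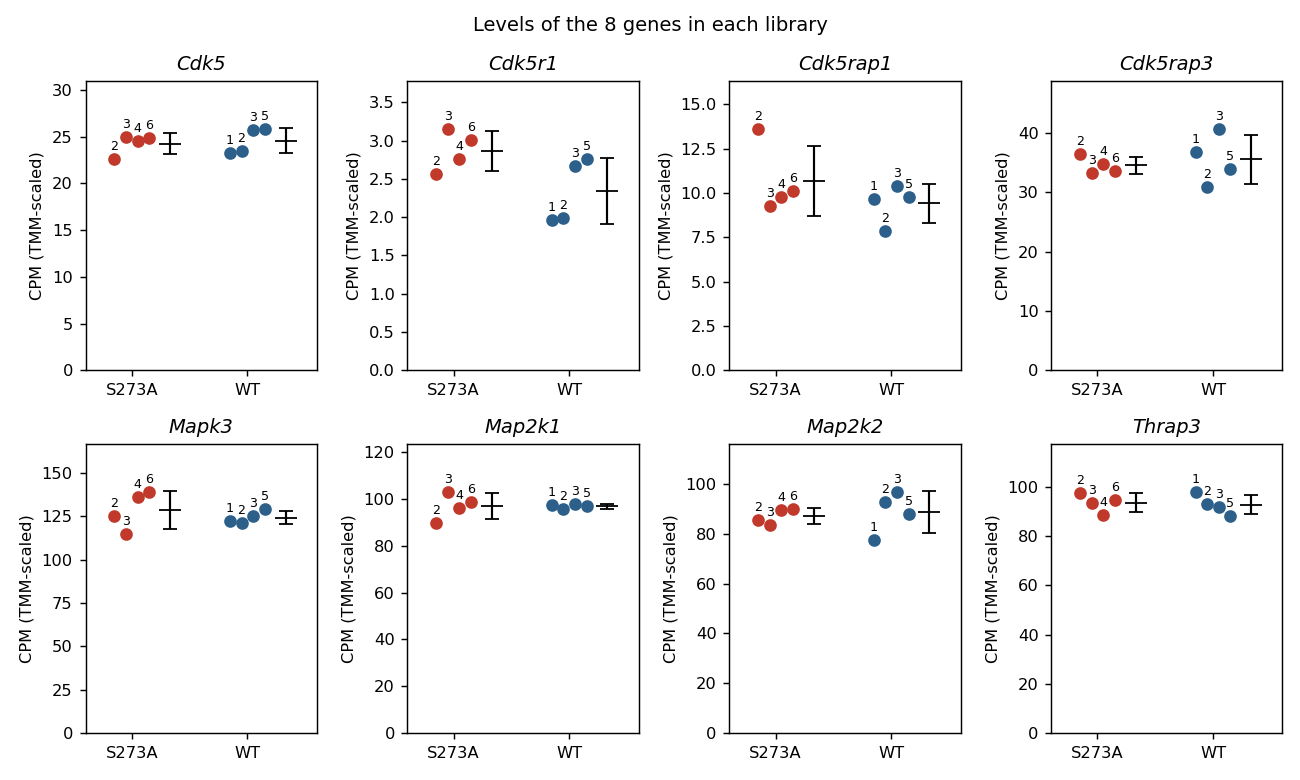
Normalised level (CPM, linear axis from 0) of each of the 8 genes in each library, S273A in red and WT in blue, with replicate numbers at the points and the mean ± SD of 4 libraries beside each group. Cdk5, Map2k1 and Thrap3 differ little between libraries, and the widest relative spread is in Cdk5r1 (1.96 to 3.15 CPM) and Cdk5rap1 (7.85 to 13.6 CPM).

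Cdk5, the kinase itself (row uc008wrl.1; chromosome 5, 24418241 to 24423530, minus strand, GRCm38), was level across the libraries. It had 22.6, 25.0, 24.5 and 24.9 CPM in S273A replicates 2, 3, 4 and 6, and 23.3, 23.5, 25.7 and 25.8 CPM in WT replicates 1, 2, 3 and 5, where CPM is the count scaled by the TMM-corrected library size. S273A replicate 2 was the lowest of all 8, and the other 3 S273A libraries lay inside the WT range. The fold was 0.989 with a 95% confidence interval of 0.893 to 1.09 (edgeR unadjusted p 0.805).

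Cdk5r1 encodes p35, an activator that switches on Cdk5 by binding it, and it had the highest estimate of the set. Its counts were 46, 56, 48 and 49 in S273A and 33, 35, 39 and 47 in WT, or 2.56, 3.15, 2.76 and 3.01 CPM against 1.96, 1.99, 2.67 and 2.76 CPM. WT replicates 1 and 2 were lowest, while WT replicates 3 and 5 stood among the S273A libraries. Its estimate on the log2 scale was 0.30 (SE 0.17; interval at the 95% level -0.08 to 0.68; edgeR unadjusted p 0.114), and 93.9% of all tested rows had a smaller estimate in size. Those rows were not matched for level, and Cdk5r1 had the lowest counts of the set. The summed counts over 4 libraries were 199 in S273A and 154 in WT (row uc007kmg.1; chromosome 11, 80477023 to 80481184, plus strand).

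Cdk5r2, which encodes the other activator, p39, was at 0 counts in all 8 libraries. Taking 3 counts as the limit that a count of 0 allows, its level was at most 0.167 to 0.184 CPM in S273A and 0.171 to 0.205 CPM in WT, for counting error only. p35 and p39 are best known from neurons. Of 13 neuron and axon markers, 3 passed the filter, Th and Uchl1 were at 0 counts in every library, and the list summed to 34.5 to 44.1 CPM in S273A and 31.0 to 44.9 CPM in WT. Most of that sum was Syp, at 28.0 to 36.1 CPM in S273A and 24.2 to 37.7 CPM in WT, followed by Stmn2, at 4.55 to 7.59 and 4.24 to 5.4 CPM. The part of nerve fibres in the Cdk5r1 level was not tested. In whole tissue, fewer cells of a type and less RNA per cell cannot be told apart.

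The level of the activator relative to its kinase was set by library, since this ratio needs no scaling of library size. Per kilobase, the Cdk5r1 to Cdk5 ratio was 0.0569, 0.0631, 0.0565 and 0.0609 in S273A replicates 2, 3, 4 and 6, and 0.0425, 0.0427, 0.0524 and 0.0538 in WT replicates 1, 2, 3 and 5. All 4 S273A libraries lay above all 4 WT libraries, although neither gene alone separated the genotypes. Cdk5 transcripts thus outnumbered those of p35 by 15.8 to 23.5 times per kilobase. The log2 ratio was -4.08 ± 0.08 in S273A and -4.39 ± 0.18 in WT (SD, n = 4 each), a difference of 0.32. A two-sided exact permutation test gave p = 0.0286, the smallest that 4 against 4 libraries can give, and 0.0858 after Benjamini-Hochberg adjustment over the 3 ratios computed, which did not pass. The ratio of a row to Cdk5 was higher in S273A without overlap for 0.581% of the other 15666 tested rows. This share covers that direction only and leaves out rows with a lower ratio. The lowest S273A ratio, 0.0565 in replicate 4, and the highest WT ratio, 0.0538 in replicate 5, rest on 48 and 47 Cdk5r1 counts.

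**Figure D2:**
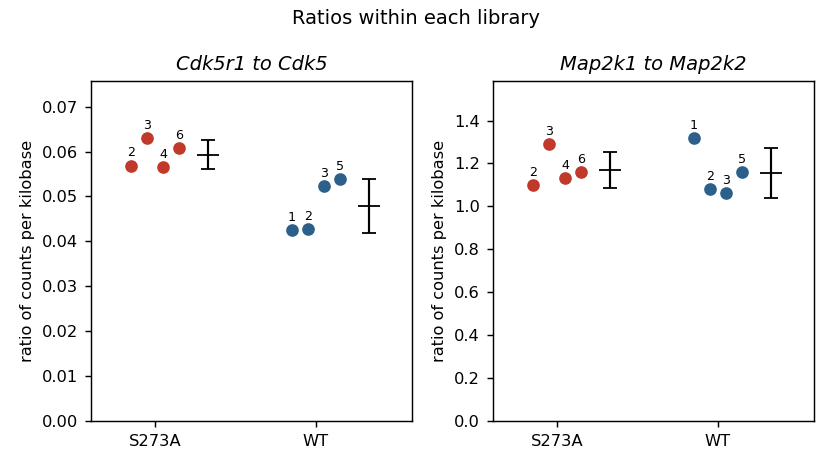
Ratio of counts per kilobase within each library for Cdk5r1 to Cdk5 and Map2k1 to Map2k2 (linear axes from 0), S273A in red and WT in blue, with the mean ± SD of 4 libraries beside each group. The 4 S273A libraries sit at 0.0565 to 0.0631 for Cdk5r1 to Cdk5, above the WT libraries at 0.0425 to 0.0538, and the groups overlap for Map2k1 to Map2k2.

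Cdk5rap1 and Cdk5rap3 encode proteins first isolated as binding partners of p35 or Cdk5. The first is also known as an enzyme that modifies mitochondrial tRNA, and the second as a part of the machinery that attaches UFM1 to proteins at the endoplasmic reticulum. Cdk5rap1 (row uc008njb.1; chromosome 2, 154335380 to 154373010, minus strand) had 13.6, 9.28, 9.76 and 10.1 CPM in S273A and 9.67, 7.85, 10.4 and 9.75 CPM in WT. S273A replicate 2 stood above all other libraries and WT replicate 2 below them, and the remaining 6 lay between 9.28 and 10.4 CPM. On the log2 scale the S273A estimate was 0.18 higher (SE 0.14; interval at the 95% level -0.13 to 0.50; edgeR unadjusted p 0.223). It was 0.05 without S273A replicate 2 and 0.11 without WT replicate 2.

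The same libraries stood at the ends for the sum of fat cell markers, though not for each marker. The 10 adipocyte markers summed to 10600 CPM in S273A replicate 2 and 7060 CPM in WT replicate 2, the highest and the lowest of the 8 libraries, and ran from 8170 to 10600 CPM in S273A and from 7060 to 10100 CPM in WT. The top place of S273A replicate 2 rests on Car3, at 2780 CPM there and 1540 to 1870 CPM in the other libraries. Its Lep (1670 CPM) and Cidec (1100 CPM) were below those of WT replicate 3 (2410 and 1410 CPM). Of these 10 markers, 9 had a positive estimate and the median log2 fold change was 0.05. Of the 10 macrophage markers 1 had a positive estimate, with a median of -0.12. Their sum was highest in WT replicate 2, at 4680 CPM, and ran from 3700 to 4170 CPM in S273A and from 3920 to 4680 CPM in WT. Pparg itself was at 165 CPM in S273A replicate 2 and 106 CPM in WT replicate 2, again the ends of its range. The part of these mixtures in the Cdk5rap1 values was not tested.

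Cdk5rap3 (row uc007lcv.2; chromosome 11, 96907426 to 96916496, minus strand) had 36.5, 33.3, 34.7 and 33.6 CPM in S273A and 36.8, 30.9, 40.6 and 33.9 CPM in WT. The WT libraries held both the highest and the lowest value, and all S273A libraries lay between them. Its fold was 0.971 (95% confidence interval 0.853 to 1.11; edgeR unadjusted p 0.623). An antisense transcript, D030028A08Rik, overlaps 227 of its 3812 exon bases in GENCODE M21, and the libraries hold no strand, so reads there cannot be assigned to one of the genes. For the other 7 genes no exon base was shared with another annotated gene.

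Mapk3 encodes ERK1, and it was the most abundant of the 8 genes per kilobase. Mapk3 (row uc009jsm.1; chromosome 7, 126759601 to 126765819, plus strand) had 125, 115, 136 and 139 CPM in S273A and 122, 121, 125 and 129 CPM in WT. S273A replicate 3 was below and S273A replicates 4 and 6 above all WT libraries, so the S273A libraries spread to both sides of the WT range. The fold was 1.03 (95% confidence interval 0.935 to 1.14; edgeR unadjusted p 0.489).

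Map2k1 and Map2k2 encode MEK1 and MEK2, the kinases that phosphorylate ERK. Map2k1 (row uc009qbp.1; chromosome 9, 64185770 to 64253631, minus strand) had 89.6, 103, 96.3 and 98.8 CPM in S273A and 97.3, 95.5, 97.7 and 97.0 CPM in WT. The WT libraries were almost identical, and the S273A libraries lay around them on both sides. The fold was 0.999 (95% confidence interval 0.923 to 1.08; edgeR unadjusted p 0.988), the estimate of the 8 closest to no change. Map2k2 (row uc007gfx.2; chromosome 10, 81105915 to 81133975, plus strand) had 85.6, 83.6, 89.7 and 89.8 CPM in S273A and 77.4, 92.8, 96.8 and 87.8 CPM in WT. Here the wider spread was in WT, where replicate 1 was lowest and replicate 3 highest of all 8 libraries. The fold was 0.983 (95% confidence interval 0.881 to 1.1; edgeR unadjusted p 0.726). Map2k1 was 1.1 to 1.29 times Map2k2 per kilobase in S273A and 1.06 to 1.32 times in WT, above it in all 8 libraries, with a log2 difference between the genotypes of 0.02 (two-sided exact permutation p = 0.8, adjusted 0.8).

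Thrap3, also called TRAP150, is an RNA-binding protein of splicing complexes that binds PPAR-gamma when serine 273 is phosphorylated. Thrap3 (row uc008usv.1; chromosome 4, 126164082 to 126202760, minus strand) had 97.7, 93.6, 88.6 and 94.9 CPM in S273A and 98.0, 93.2, 91.9 and 88.4 CPM in WT. Every S273A library lay inside the WT range. The fold was 1.01 (95% confidence interval 0.931 to 1.09; edgeR unadjusted p 0.811).

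**Figure D3:**
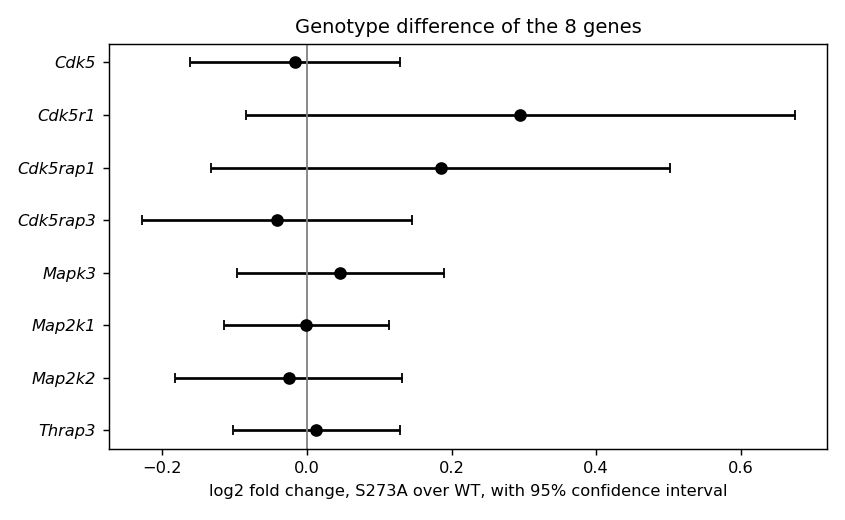
Log2 fold change of each of the 8 genes, S273A over WT, from edgeR, with 95% confidence intervals from 4 libraries per group. All 8 intervals include 0; those of Cdk5r1 (-0.08 to 0.68) and Cdk5rap1 (-0.13 to 0.50) are the widest.

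The genes also differed in how far they varied among libraries of 1 genotype. The residual SD of log2 CPM about the genotype means was 0.06 for Map2k1, 0.06 for Thrap3 and 0.07 for Cdk5, against a median of 0.13 over the 13753 tested rows whose mean log2 CPM reached 1. Only 9.28%, 10.1% and 17.5% of those rows had a smaller SD. Mapk3 (0.09), Map2k2 (0.10) and Cdk5rap3 (0.12) were also below that median. Cdk5r1 (0.20) and Cdk5rap1 (0.21) were above it. Genes were not matched for level here, so these shares do not set the 8 apart from others of like abundance.

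**Figure D4:**
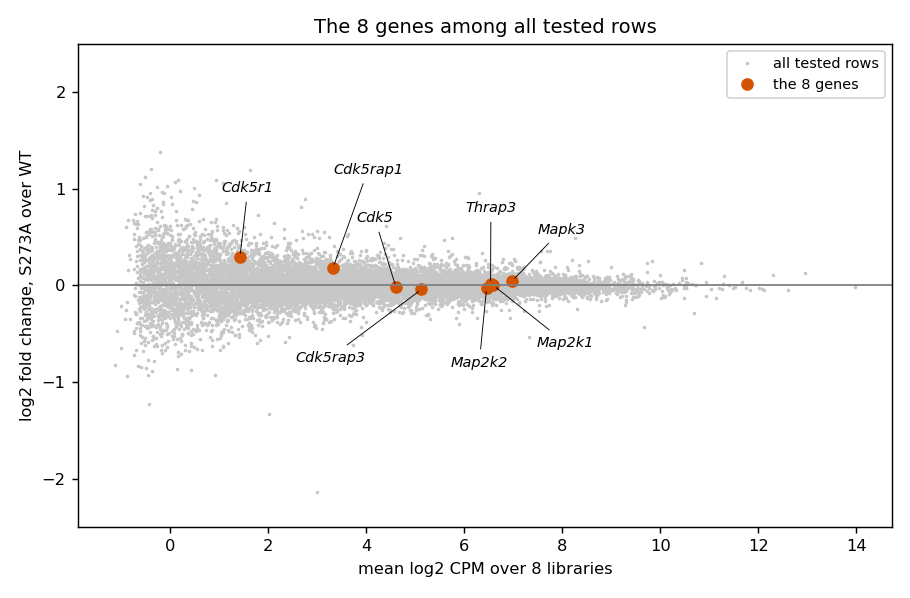
Log2 fold change, S273A over WT, against mean log2 CPM for all 15667 tested rows (grey) and the 8 genes (orange). The 8 genes lie within the band of all rows at their level, between -0.04 and 0.30.

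The genes with the nearest pattern over the 8 libraries were sought among 12395 rows, by the root-mean-square difference in log2 CPM after centring each gene on its mean. Nearest to Cdk5, whose own root-mean-square deviation was 0.06, were Txndc9 (difference 0.01) and Pes1 (0.02). Nearest to Cdk5r1, with its own deviation of 0.23, were Erh (0.09) and Zfp580 (0.10). For Cdk5rap1 they were Ccbl2 and Pitpnm2, for Cdk5rap3 Fbxo4 and Bcl2l2, and for Mapk3 Baiap2 and Arhgap1. For Map2k1 they were Brd8 and Eif2s1, for Map2k2 Tbc1d10b and Rpl35, and for Thrap3 Crebzf and Serping1. Among 12395 rows and over only 8 libraries, some rows lie near any pattern, and a gene that varies little is near many. These names therefore do not show shared regulation, and counting error adds to the pattern of Cdk5r1, the gene with the lowest counts.

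Beyond the 8 genes, 9 lists of the surrounding pathways were read in the same fit. They hold 169 genes, the 8 included, of which 167 had a row and 165 were tested. None was called in edgeR, 0 higher and 0 lower, against 0% of all rows. At an unadjusted p under 0.05 there was 1 gene, or 0.606%, against 1.46% of all rows, and 1 gene had no overlap between the genotypes (0.606%, against 1.19%). The median log2 fold change was 0.01, beside 0.001 for all tested rows.

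The list of Cdk5 with its activators and modulators holds 4 of the 8 genes. In that list 0 of 14 tested genes were called, estimates ran from -0.10 to 0.30, 6 estimates were positive and 8 negative, and the median was -0.01. Gstp1, a glutathione transferase that can inhibit Cdk5, was at 15.9 ± 0.998 CPM in S273A and 14.5 ± 0.85 CPM in WT (SD, n = 4 each; edgeR unadjusted p 0.132). Calpains cut p35 into the longer-lived p25. Their shared small subunit Capns1 was the most abundant gene of the list, at 141 RPKM in S273A and 139 RPKM in WT, followed by Ccni, a cyclin reported to activate Cdk5, at 64.6 and 65.3 RPKM. Of 17 other cyclin-dependent kinases 0 were called (median 0.01); Cdk4 was the most abundant, at 43.5 RPKM in S273A and 42.6 RPKM in WT, followed by Cdk16 at 28.4 and 27.5 RPKM. The smallest p-values of that list belonged to Cdk19, Cdk1 and Cdk20, with log2 fold changes of -0.07, -0.17 and -0.11.

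Upstream and downstream of ERK no listed gene was called. The core of the cascade, which holds Mapk3, Map2k1 and Map2k2, had 0 of 25 tested genes called, with 10 positive and 15 negative estimates and a median of -0.003. Ksr1, a scaffold that holds Raf, MEK and ERK together, was at 40.1 ± 4.65 CPM in S273A and 36.7 ± 2.73 CPM in WT, and Shc1, an adaptor upstream of Ras, at 84.9 ± 3.75 and 81.5 ± 2.7 CPM (SD, n = 4 each). Rps6ka1, a kinase that ERK activates, had a log2 fold change of -0.09, and the small GTPase gene Rras, after Mapk3 the most abundant, one of 0.06. Among phosphatases and inhibitors of ERK signalling 0 of 23 were called (14 positive, 9 negative, median 0.02). Nf1, which switches Ras off, was at 234 ± 3.76 CPM in S273A and 224 ± 7.82 CPM in WT. Pebp1 had a log2 fold change of 0.11 and Dusp1 one of -0.09, and the most abundant genes, Pea15a and Dusp3, were at 105 and 79.2 RPKM in S273A and 104 and 81.5 RPKM in WT.

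Transcripts that ERK signalling induces were read as a list because kinase activity itself was not measured. Of 16 tested genes 0 were called, 9 had positive and 7 negative estimates, and the median was 0.02. Srf, a transcription factor of the immediate response, was the 1 gene without overlap: 50.2, 54.6, 54.3 and 52.5 CPM in S273A and 50, 48.0, 45.6 and 50 CPM in WT. The gap between S273A replicate 2 and the highest WT libraries is small, and the log2 fold change of 0.13 (95% confidence interval 0.01 to 0.25) had an edgeR unadjusted p of 0.0396 and an adjusted p of 1. Fos was at 55.4 ± 7.86 CPM in S273A and 63.8 ± 9.83 CPM in WT, Plaur at 26.8 ± 3.09 and 23.8 ± 3.18 CPM, and Junb at 126 ± 7.9 and 128 ± 6.12 CPM (SD, n = 4 each). Egr1, which links ERK to p35 induction in a rat neuronal cell line, was named after its values were seen. It was at 24.8, 27.4, 33.3 and 27.6 CPM in S273A and 36.6, 22.7, 20.7 and 36.8 CPM in WT. The S273A libraries all lay within the WT range.

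Other MAP kinases held the widest estimates of the 9 lists, in genes of low level. Of 14 tested, 0 were called (median 0.02). Mapk4 was at 2.05 ± 0.523 CPM in S273A and 1.44 ± 0.41 CPM in WT (log2 fold change 0.51, SE 0.26), and Map2k6, which activates p38, at 4.74 ± 0.611 and 5.88 ± 0.976 CPM (-0.31, SE 0.15; SD, n = 4 each). Mapk11 had a log2 fold change of 0.24. The abundant Mapk14, the main p38 gene, stood at 42.9 RPKM in S273A and 44.3 RPKM in WT, and Map2k3 at 23.9 and 23.0 RPKM.

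Genes around Thrap3 and the receptor were likewise not called. Among Thrap3 and its splicing partners 0 of 18 were called, 9 estimates were positive and 9 negative, and all lay between -0.08 and 0.05. Srsf6, Srsf2 and Srsf1 had the smallest p-values (log2 fold changes of -0.08, 0.05 and -0.06), and Srrm2 and Son were the most abundant, at 63.2 and 57.4 RPKM in S273A and 62.7 and 58.4 RPKM in WT. Of 29 tested Mediator subunits, the complex in which Thrap3 was first found, 0 were called (17 positive, 12 negative, median 0.03), and Med18, at 6.11 ± 0.529 CPM in S273A and 6.95 ± 1.07 CPM in WT, had the lowest estimate (-0.18). Med25 and Med27 had estimates of 0.09 and -0.09, and the most abundant, Med21 and Med22, stood at 22.2 and 19.6 RPKM in S273A and 21.3 and 19.7 RPKM in WT. Of 10 genes for the receptor and its corepressors 0 were called. Pparg was at 140 ± 18.1 CPM in S273A and 129 ± 15 CPM in WT, its partner Rxra at 223 ± 31.3 and 220 ± 11.8 CPM, the corepressor Ncor1 at 410 ± 20.4 and 388 ± 22.2 CPM, and Hdac3, the deacetylase that Ncor1 carries, at 58.2 ± 1.33 and 55.4 ± 2.06 CPM (SD, n = 4 each).

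**Figure D5:**
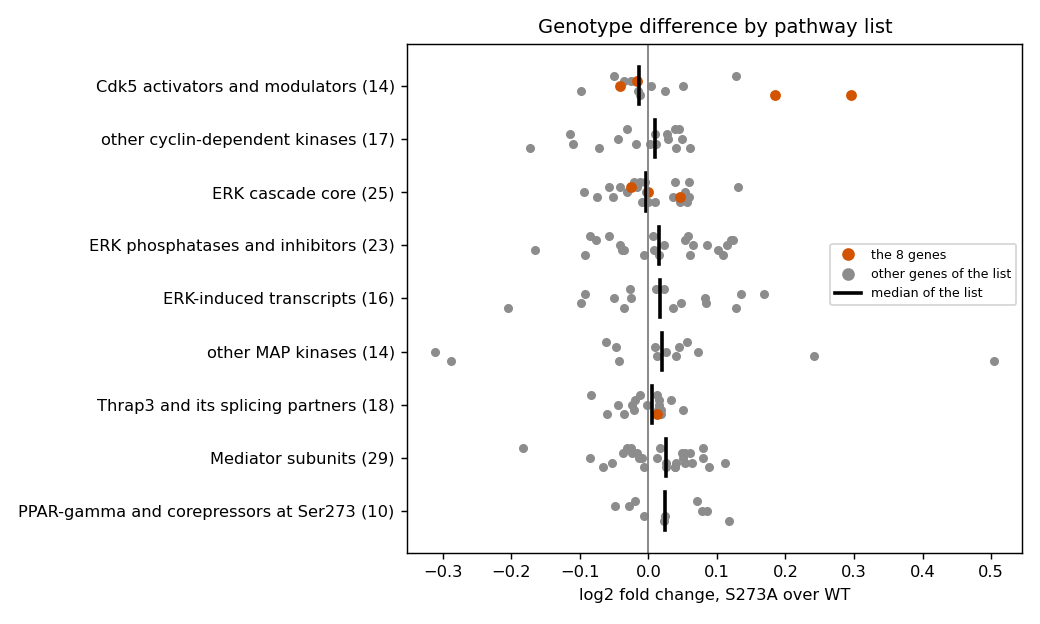
Log2 fold change, S273A over WT, of each tested gene in 9 pathway lists (number tested in brackets), with the 8 genes in orange, other genes in grey and the list median as a black bar. List medians lie between -0.01 and 0.03, and the genes farthest from 0 are Mapk4 (0.51) and Map2k6 (-0.31).

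The tissue label was read against marker genes. Adipocyte markers were abundant, as above, and of 10 epididymis and testis markers 7 had a row and none passed the filter. Their sums were 0.112 to 1.28 CPM in S273A and 0 to 0.117 CPM in WT. The highest sum was that of S273A replicate 2, where Adam7 had 20 counts (1.11 CPM), against 0 in every other library. Mesothelial markers ran from 175 to 242 CPM in S273A and from 122 to 197 CPM in WT, with 8 of 8 estimates positive and a median log2 fold change of 0.30. Endothelial markers also had 8 of 8 positive estimates, with a median of 0.09. T and NK cell markers had 1 of 7, with a median of -0.18, while B cell markers had 5 of 6, with a median of 0.16. Positive estimates were 6 of 8 for Schwann cell markers (median 0.11) and 2 of 8 for progenitor and fibroblast markers (-0.07). For muscle and pericyte markers they were 5 of 8 (0.04). Red blood cell markers ran from 206 to 400 CPM in S273A and from 189 to 284 CPM in WT, with 5 of 5 estimates positive and a median log2 fold change of 0.90. Their part in the results above was not tested.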

How the data were processed

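Read counts per gene row, as whole numbers, were deposited by the authors in a single table of 8 libraries. A further column gives row lengths in bases, per the file headers, and served only for RPKM and ratios. Per the labels' protocols, ribosomal RNA was removed from 400 ng of input, the libraries carry no strand information, amplification took 12 cycles and reads were paired, 36 bases each. The submitters' processing notes name HISAT2 2.0.5, featureCounts 1.5.2, Picard 2.9.2 and mm10. Row identifiers have the form of UCSC gene identifiers; the annotation version and the handling of duplicates are not stated in the sources used here.

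Counts were filtered with filterByExpr (about 10 counts in 4 libraries, total 15) and TMM-scaled, and genotype was tested in edgeR 4.0.16 (R 4.3.3) with estimateDisp, robust glmQLFit and glmQLFTest. P-values were adjusted over 15667 rows and called under 0.05. Intervals are 95%, from the F statistic. Log2 CPM used a prior count of 2; ratios added 0.5 counts and were tested by exact permutation in scipy 1.17.1. DESeq2 1.42.0, limma-voom (limma 3.58.1), other scalings and filters, and leaving out each library were alternatives. The fit was tested on simulated data. Positions come from GENCODE M21 (GRCm38).

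The genes, lists and tests were chosen with earlier results of these data known. Named genes are the 8, the partners in the ratios, per list the 3 smallest p-values and the 2 highest RPKM, and the 2 nearest patterns per gene. Exceptions are stated. Of the 3 ratios computed, 1 is not reported here. Intervals and limits cover counting error only where they rest on counts alone.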

Additional observations from a re-analysis of the deposited data

Results flagged for a closer look

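In 4 of 96 groups of 4 libraries examined for the 8 genes and the genes named from the pathway lists, 1 library stood apart from the other 3 by Dixon's test at the 95% level; chance gives about 1 in 20. None of the 16 groups of the 8 genes was among them. Rxra was at 270 CPM in S273A replicate 2, against 204 to 211 CPM in the other S273A libraries. Pparg was at 106 CPM in WT replicate 2, against 134 to 138 CPM in the other WT libraries, and Cdk1 was at 10.8 CPM in the same library, against 13.3 to 13.8 CPM. Ksr1 was at 40.7 CPM in WT replicate 1, against 34.8 to 35.7 CPM in the other WT libraries.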

How the results depend on the processing

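No alternative called any of the 8 genes: over 136 values the smallest adjusted p was 0.999 and the smallest unadjusted p 0.0658. The sign was kept in 118 and changed in 18, at sizes of 0.041 or less on the log2 scale. Map2k1 (-0.001) was 0.001 with RLE size factors, without the filter and in DESeq2, 0.004 with library totals alone and 0.005 with upper quartile scaling. DESeq2 called 1 row of the whole table (Gdf3), as did edgeR without S273A replicate 4, and 0 rows were called under every other alternative. The replicate numbers 2 and 3 occur in both genotypes, and no label says that a number pairs libraries. Deviations of same-numbered libraries correlated at -0.102 and -0.282, which cannot show whether they shared a batch or litter. With replicate number as a block, only libraries numbered 2 and 3 inform the genotype estimate, so that fit could detect little. It called no row, and Mapk3 was at -0.041, Cdk5rap1 at 0.318 and Map2k2 at -0.164. Leaving out 1 library at a time gave -0.042 to 0.015 for Cdk5, 0.218 to 0.384 for Cdk5r1, 0.046 to 0.255 for Cdk5rap1, -0.104 to 0.03 for Cdk5rap3, 0.007 to 0.102 for Mapk3, -0.022 to 0.034 for Map2k1, -0.086 to 0.022 for Map2k2 and -0.011 to 0.04 for Thrap3, and 0 to 1 called rows. The log2 differences of the ratios ran from 0.264 to 0.378 for Cdk5r1 to Cdk5 and from -0.03 to 0.085 for Map2k1 to Map2k2; without 1 library the first had an exact permutation p of 0.0571 or more, since 3 against 4 cannot reach 0.05. With 2 counts added it was 0.306. No symbol stood on several rows, so summing rows was not run. The cause of these shifts was not tested. Cdk5r1 had the lowest counts of the 8 genes, 33 to 56 per library.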
